A study of Mus musculus with 5 samples.

Results

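The genes described here are the collagen chains, the laminin chains and the numbered integrin subunits of isolated adult mouse heart muscle cells. They were chosen by name, from deposited gene symbols made only of a collagen, laminin or integrin stem and its chain numbers, which gave 49 of 12446 listed genes. By known role they comprised 8 fibrillar collagens, 13 other collagens, 17 basement membrane chains (6 of collagen IV, 9 laminins, Col15a1 and Col18a1) and 11 integrin subunits. Symbols that only resemble these (Itgav, Itgam, Itgad and genes of binding proteins such as Itgb1bp2) were not members. Bulk RNA sequencing was compared between 2 groups of cardiomyocytes. OSKM-CMs (replicates 1, 2 and 3) came from male C57BL/6 mice that received a mixture of adeno-associated virus (AAV) vectors for Oct4, Sox2, Klf4 and Myc, each at 2.5 × 1e10 vector genomes (vg) per gram of body weight. Control-CMs (replicates 3 and 5) came from mice that received an AAV vector for blue fluorescent protein (BFP) at 10 × 1e10 vg per gram. The vectors of both groups carried the cardiac troponin T promoter, a driver used for expression in cardiomyocytes, and were injected into the chest cavity at 8 weeks of age. The age of both groups is given as 12 to 14 weeks. Whether the libraries of a group came from different mice is not stated in the labels, so p-values reflect only library-to-library spread, which may be technical.

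Fibrillar collagens, such as types I, III and V, assemble into the tensile fibers of the interstitial matrix and are made in the heart mainly by fibroblasts. Basement membranes are thin sheets around each cardiomyocyte and capillary, built from a laminin network and a collagen IV network. Laminins are trimers of an alpha, a beta and a gamma chain, and collagen IV is a trimer of alpha chains. Integrins are heterodimers of an alpha and a beta subunit that bind these matrix proteins and connect them to the cytoskeleton.

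Levels are given as RPKM, reads scaled to gene length and library size, after rescaling with trimmed-mean (TMM) factors, so that levels of different genes can be compared. Reads over the listed genes totalled 2691796 to 2780751 in OSKM-CMs and 3519628 to 3861805 in Control-CMs, and a gene with 0 reads in a library could have reached 3 reads (0.777 to 1.11 CPM, covering counting error only). Differences were tested with limma on log2(scaled RPKM + 1) over the 10915 genes whose mean RPKM reached 1, and a gene was called at a Benjamini-Hochberg adjusted p below 0.05. Adding 1 understates the log2 fold change of genes with low values, so the fold of mean levels is also given. Cardiomyocyte markers were the most abundant of the cell type markers in every library, with a summed scaled RPKM of 16287 to 19827 in OSKM-CMs and 30136 to 32929 in Control-CMs, and 7 of 8 fell in OSKM-CMs (all but Actc1). Among the OSKM-CMs libraries, replicate 2 was the lowest for 23 of 29 collagen genes. It was also the lowest for 10 of 11 listed fibroblast markers and 11 of 12 endothelial markers. The same held for 6 of 6 listed leukocyte and 3 of 3 listed epicardial markers, but for 1 of 8 cardiomyocyte markers. Replicate 2 was lowest for 9 of 17 basement membrane members and 6 of 11 integrins. The share of all listed genes lowest in replicate 2 was not computed, so these counts have no background. In such bulk samples, fewer cells of a type and less RNA per cell cannot be told apart.

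In OSKM-CMs, 11 of 17 tested collagen genes rose and none fell, while 1 of 9 tested integrins rose and 2 fell. Of the 34 members tested, 17 were called in either direction, against a background of 30.2% of all genes tested. Of these, 14 rose, against a background of 15.9% of all genes tested, and 3 fell, against 14.3%. At a fold of at least 2, 8 rose (background 6.67%) and 2 fell (4.61%). The median log2 fold change of the tested members was 0.53, against 0.02 for all genes tested. Over all 49 listed members, the groups did not overlap with OSKM-CMs higher for 28 (background 29.6% of listed genes) and with OSKM-CMs lower for 5 (26.5%). The 17 tested of the 29 listed collagens had a median log2 fold change of 0.85. Col1a1, Col6a3, Col14a1, Col16a1 and Col18a1 passed the RPKM minimum with a scaled Control-CMs mean under 1, that is, through the OSKM-CMs libraries. The minimum was applied before TMM scaling. On that scale the Control-CMs mean of Col8a1 was also just under 1 (1.17 after scaling). The counts therefore describe the members that passed and not the family. Without OSKM-CMs replicate 3, 10 members rose in place of 14, and 1158 genes rose over the whole table in place of 1740. The count of members was lowest without Control-CMs replicate 5, where fewer genes rose over the whole table as well. With library totals alone in place of TMM factors, the median over all genes moved to 0.36, and 3985 genes rose and 650 fell, in place of 1740 and 1558. Relative to that median, Itgb6 stood at -1.49, Itga7 at -1.05 and Lamb2 at -0.35.

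**Figure D1:**
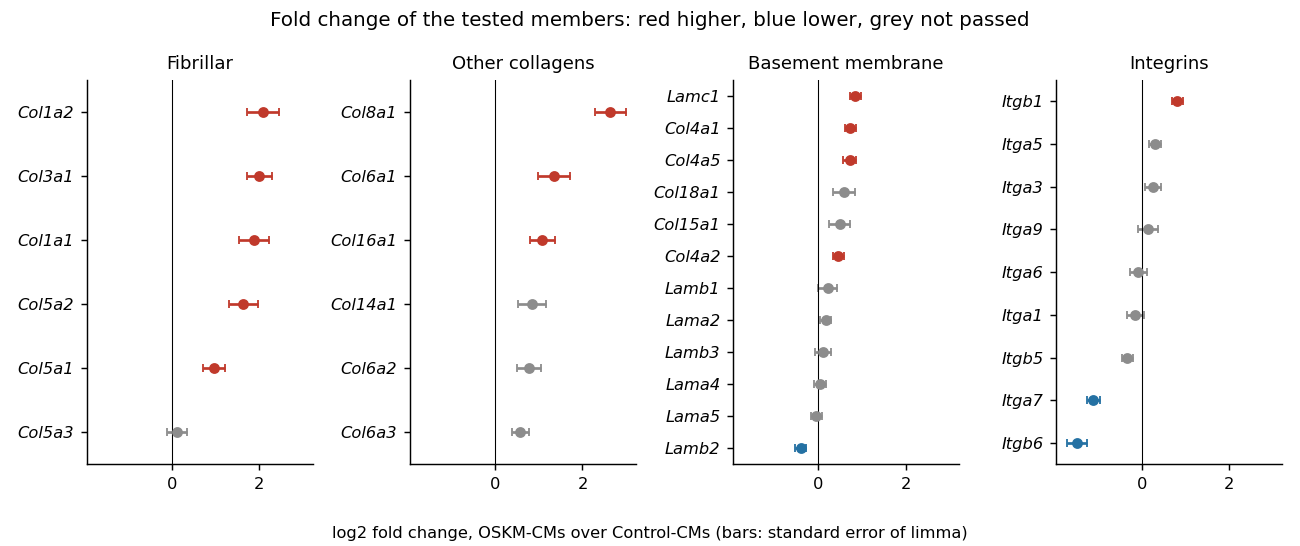
Log2 fold change of OSKM-CMs over Control-CMs (x axis, on the log2(scaled RPKM + 1) scale) for tested genes in 4 classes, with bars for the standard error of limma. Red points rose, blue points fell and grey points did not pass at an adjusted p of 0.05. The fibrillar collagens spanned 0.12 to 2.08 and the integrins -1.49 to 0.82. With library totals alone, the blue point of Lamb2 moved to 0.0059.

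Of the 8 fibrillar collagens, 6 were tested, 5 rose (background 15.9% of all genes tested) and none fell (14.3%), and Col5a3 did not pass. Their median log2 fold change was 1.76. Col3a1 (ENSMUSG00000026043.11), the chain of type III collagen and the most abundant fibrillar chain, was at 44.6, 23.9 and 47.3 scaled RPKM in OSKM-CMs replicates 1, 2 and 3, against 9.25 and 7.78 in Control-CMs replicates 3 and 5. All 3 OSKM-CMs libraries were above both Control-CMs libraries, and replicate 2 was the lowest of them. Its mean was 38.6 ± 12.8 (SD, n = 3) in OSKM-CMs and 8.51 ± 1.04 (SD, n = 2) in Control-CMs, a 4.53-fold difference (log2 fold change 2.00 with SE 0.29, limma adjusted p = 0.00374). Col1a1 (ENSMUSG00000001506.9), the alpha1 chain of type I collagen, was at 7.19, 3.25 and 8.37 scaled RPKM in OSKM-CMs, against 1.14 and 0.648 in Control-CMs. Type I collagen is the main fibrillar collagen of scar and tendon. Col1a1 rose 7.03-fold (log2 fold change 1.87 with SE 0.35, limma adjusted p = 0.0076), and its groups did not overlap.

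Col1a2 (ENSMUSG00000029661.9), the alpha2 chain that completes the type I trimer, was at 11.5, 5.27 and 13.7 scaled RPKM in OSKM-CMs, against 1.81 and 1.18 in Control-CMs. The same library, replicate 2, was lowest again, and the groups were apart. It rose 6.79-fold (log2 fold change 2.08 with SE 0.37, limma adjusted p = 0.0075). The ratio of Col1a2 to Col1a1 was 1.60, 1.62 and 1.63 in OSKM-CMs and 1.59 and 1.82 in Control-CMs, so that ratio overlapped between groups. The ratio of Col3a1 to Col1a1 was 6.20, 7.37 and 5.65 in OSKM-CMs and lower than in both Control-CMs libraries, at 8.14 and 12.0. The promoter window of Col1a2 is shown because both chains of type I collagen moved together and because Klf4 and Myc were among the delivered factors. Klf4 is known to bind CACCC-type letters and Myc to bind CACGTG, and CCAAT letters are a known element of type I collagen promoters. The window covers 250 bases before to 50 after the start (RefSeq, GRCm38.p6, chr6:4505368-4505667, plus strand), with CCAAT or its complement ATTGG and CACCC or its complement GGGTG in capitals.
Col1a2: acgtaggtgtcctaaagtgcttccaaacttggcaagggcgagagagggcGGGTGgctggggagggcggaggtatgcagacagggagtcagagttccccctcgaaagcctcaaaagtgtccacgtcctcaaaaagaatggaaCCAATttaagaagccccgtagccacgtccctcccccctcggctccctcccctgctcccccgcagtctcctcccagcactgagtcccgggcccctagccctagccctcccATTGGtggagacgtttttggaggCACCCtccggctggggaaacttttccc
The Col1a2 window held 2 matches to CCAAT on either strand, likewise 2 to the letters CACCC and 2 to GGGCGG (known to be bound by Sp1), and none to CACGTG or TATAAA. Of 42 windows found for 37 of the 49 members, CACCC was in 71.4%, against 57.5% of all 32851 windows. CCAAT was in 26.2% against 37.4%, GGGCGG in 61.9% against 35.7%, TATAAA in 4.76% against 13.6%, and CACGTG in 0 of 42 against 7.15%. CACCC and GGGCGG, read on both strands, can share bases, and a match of letters is a description and not a binding site.

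The chains of type V collagen, which forms the core of type I fibrils and limits their width, differed among themselves. Col5a2 (ENSMUSG00000026042.9) was at 7.63, 3.39 and 7.97 scaled RPKM in OSKM-CMs, against 1.58 and 0.953 in Control-CMs, and rose 4.99-fold (log2 fold change 1.64 with SE 0.33, limma adjusted p = 0.0111). Col5a1 was at 3.28, 2.28 and 4.53 in OSKM-CMs, against 1.30 and 1.08 in Control-CMs, and rose 2.83-fold (log2 fold change 0.97 with SE 0.24, limma adjusted p = 0.0214). For both chains every OSKM-CMs library was above every Control-CMs library. Col5a3, a minor alternative chain, was at 1.59, 0.951 and 1.65 in OSKM-CMs, against 1.43 and 0.963 in Control-CMs, and these ranges overlapped (log2 fold change 0.12, limma adjusted p = 0.718). The calls of type V chains depended on single libraries. Col5a1 had a limma adjusted p of 0.0661 and 0.0597 without OSKM-CMs replicates 1 and 3, and of 0.0577 and 0.0896 without Control-CMs replicates 3 and 5 (range over its alternatives 0.00577 to 0.0896). Without Control-CMs replicate 5, Col5a2 had an adjusted p of 0.0673 (range 0.00143 to 0.0768), and 3 of the 6 tested fibrillar genes rose in place of 5. With limma voom on recovered whole reads, which called 15.2% of all genes higher and 15.2% lower, Col1a1, Col1a2 and Col5a2 had adjusted p of 0.0643, 0.0796 and 0.0768, so 2 fibrillar genes rose. Their ranges over the alternatives were 0.00109 to 0.0643 for Col1a1 and 0.000686 to 0.0796 for Col1a2.

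**Figure D2:**
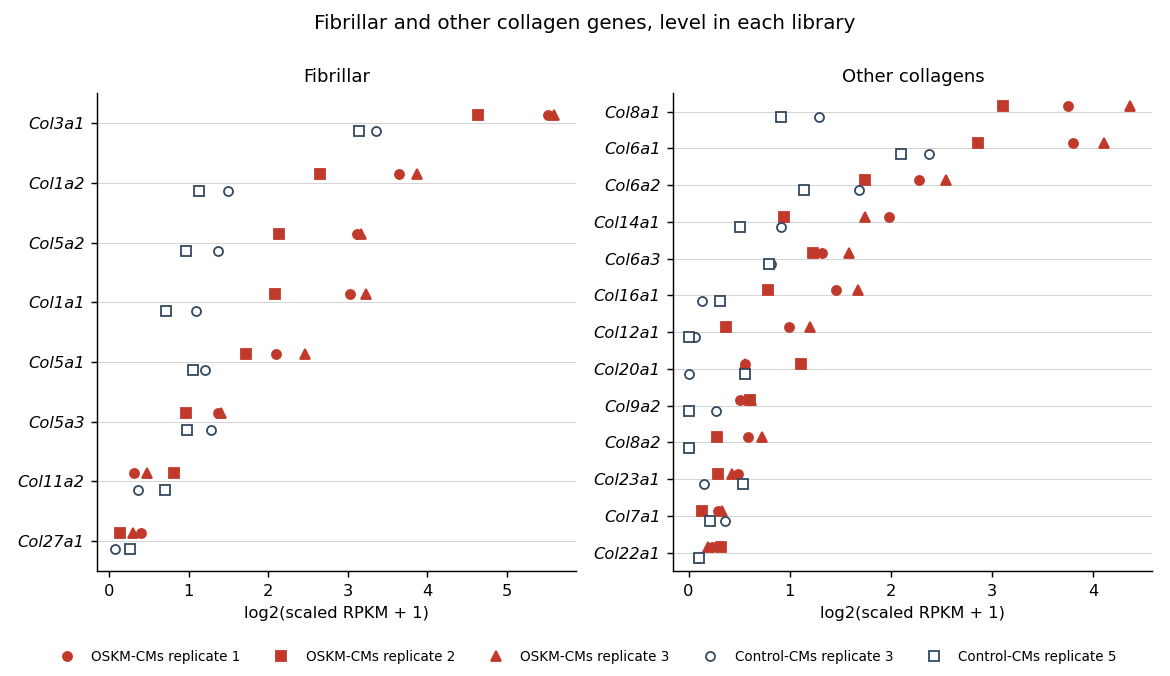
Level of each listed fibrillar collagen (left) and other collagen (right) in each library, as log2(scaled RPKM + 1) on the x axis, with filled red marks for OSKM-CMs and open marks for Control-CMs. The red marks of Col3a1 (23.9 to 47.3 scaled RPKM) lie right of its open marks (7.78 and 9.25), and the red square, replicate 2, is the lowest red mark for 7 of 8 fibrillar and 10 of 13 other collagens.

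Of the 13 other collagens, 6 were tested, 3 rose (background 15.9% of all genes tested) and none fell (14.3%). Their median log2 fold change was 0.97. Col8a1 (ENSMUSG00000068196.4), a short-chain collagen that forms networks in vessel walls, was at 12.4, 7.60 and 19.6 scaled RPKM in OSKM-CMs, against 1.45 and 0.890 in Control-CMs. All OSKM-CMs libraries lay well above both Control-CMs libraries. Its mean was 13.2 ± 6.05 in OSKM-CMs (SD, n = 3) and 1.17 ± 0.395 in Control-CMs (SD, n = 2), an 11.3-fold difference and the largest log2 fold change of the 34 tested genes (2.63 with SE 0.36, limma adjusted p = 0.00288). With limma voom its adjusted p was 0.0515 (range over its alternatives 0.0009 to 0.0515). Col16a1, a fibril-associated collagen, was at 1.75, 0.720 and 2.20 scaled RPKM in OSKM-CMs, against 0.0963 and 0.243 in Control-CMs. These rest on 36, 15 and 45 reads in OSKM-CMs against 2 and 5 in Control-CMs, and the groups did not overlap. It rose 9.18-fold (log2 fold change 1.08 with SE 0.29, limma adjusted p = 0.0275), and its log2 fold change was 2.99 with limma voom and 0.34 with 5 added before logs. Its adjusted p was 0.105 and 0.0695 without Control-CMs replicates 3 and 5 (range over its alternatives 0.00792 to 0.105).

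Type VI collagen forms beaded filaments next to basement membranes and is made of the chains of Col6a1, Col6a2 and Col6a3. Col6a1 (ENSMUSG00000001119.6) was at 12.9, 6.25 and 16.2 scaled RPKM in OSKM-CMs, against 4.20 and 3.28 in Control-CMs, and rose 3.15-fold (log2 fold change 1.35 with SE 0.36, limma adjusted p = 0.0351). Col6a2 was at 3.84, 2.36 and 4.84 in OSKM-CMs, against 2.21 and 1.21 in Control-CMs (log2 fold change 0.77, limma adjusted p = 0.0721). Col6a3 was at 1.50, 1.35 and 2.00 in OSKM-CMs, against 0.756 and 0.736 in Control-CMs (log2 fold change 0.58, limma adjusted p = 0.0647). All 3 chains had groups apart, and Col6a1 alone passed in the main test. With limma voom Col6a3 passed (adjusted p = 0.00933), while Col6a1 (0.121) and Col6a2 (0.0549) did not. Col6a3 also passed with library totals alone (limma adjusted p = 0.0184) and with no trend and no robust step (0.0357). Col14a1, a fibril-associated collagen, was at 2.94, 0.921 and 2.34 in OSKM-CMs, against 0.877 and 0.420 in Control-CMs, and did not pass (log2 fold change 0.85, limma adjusted p = 0.0896). Leaving out single libraries also changed the calls of Col6a1, Col6a2 and Col14a1. Without OSKM-CMs replicates 1 and 3 the adjusted p of Col6a1 was 0.0972 and 0.0650, and without Control-CMs replicates 3 and 5 it was 0.0855 and 0.143 (range over its alternatives 0.00171 to 0.143). Without OSKM-CMs replicate 2 it was 0.0291 for Col6a2 (range 0.0200 to 0.305) and 0.0163 for Col14a1 (range 0.0163 to 0.307), so 5 of the 6 genes rose. Without OSKM-CMs replicate 1 or 3, Col16a1 was under the RPKM minimum, and 1 of the 5 genes then tested rose. Without either Control-CMs library, fewer of the 6 genes rose than in the main test.

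The remaining 7 other collagens were under the RPKM minimum. Col12a1, a fibril-associated collagen, had 46, 14 and 60 reads in OSKM-CMs against 2 and 0 in Control-CMs. Scaled for depth and pooled over libraries, that is a ratio of 40.1 with an exact 95% interval of 10.9 to 335, covering counting error only. Col8a2, the partner chain of Col8a1, had 7, 3 and 9 reads in OSKM-CMs against 0 and 0 in Control-CMs, at least 4.23-fold higher with the floor of 3 reads taken over the group. In the authors' deposited table, the false discovery rate was 7.43e-08 for Col12a1 and 0.00391 for Col8a2, and 0.0919 for Col9a2. At a rate below 0.05 that table had 16.4% of listed genes higher and 15.4% lower. The authors' rate was also below 0.05 for 4 tested members that did not pass here. These were Col6a2 (0.00918), Col6a3 (0.00295), Col14a1 (0.00648) and Col18a1 (0.0253). With limma voom on all listed genes, Col12a1 did not pass (adjusted p = 0.169) and Col8a2 passed (adjusted p = 0.0178). Col9a2 had 14 reads over the OSKM-CMs libraries and 2 over the Control-CMs libraries, a ratio of 4.68 (exact 95% interval 1.07 to 42.4), and its limma voom adjusted p was 0.123. The others (Col7a1, Col20a1, Col22a1 and Col23a1) had 16 to 27 reads over the OSKM-CMs libraries and 4 to 14 over the Control-CMs libraries.

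All 3 tested collagen IV genes rose (background 15.9% of all genes tested), with log2 fold changes of 0.45 to 0.73. Col4a1 (ENSMUSG00000031502.9) and Col4a2 (ENSMUSG00000031503.7) encode the chains of the common heterotrimer found in nearly all basement membranes. Col4a1 was at 79.9, 78.5 and 92.6 scaled RPKM in OSKM-CMs, against 49.7 and 50.02 in Control-CMs. The Control-CMs libraries lay close together and all OSKM-CMs libraries were above them. Col4a1 rose 1.68-fold (log2 fold change 0.73 with SE 0.12, limma adjusted p = 0.0038). Col4a2 was at 43.0, 41.4 and 47.7 in OSKM-CMs, against 29.6 and 34.2 in Control-CMs, and rose 1.38-fold (log2 fold change 0.45 with SE 0.13, limma adjusted p = 0.0312). The OSKM-CMs libraries were again all above the Control-CMs libraries. Without OSKM-CMs replicates 1 and 3 the adjusted p of Col4a2 was 0.0714 and 0.0942, and without Control-CMs replicates 3 and 5 it was 0.162 and 0.0529 (range over its alternatives 0.00129 to 0.162). The ratio of Col4a1 to Col4a2 was 1.86, 1.90 and 1.94 in OSKM-CMs and 1.68 and 1.46 in Control-CMs.

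Col4a1 and Col4a2 lie head to head and are read in opposite directions from a shared stretch, and their promoter windows are shown because both rose. The windows (RefSeq, GRCm38.p6) are chr8:11312777-11313076 on the minus strand for Col4a1 and chr8:11312555-11312854 on the plus strand for Col4a2, and they share 78 bases. Capitals again mark CCAAT or ATTGG and CACCC or GGGTG.
Col4a1: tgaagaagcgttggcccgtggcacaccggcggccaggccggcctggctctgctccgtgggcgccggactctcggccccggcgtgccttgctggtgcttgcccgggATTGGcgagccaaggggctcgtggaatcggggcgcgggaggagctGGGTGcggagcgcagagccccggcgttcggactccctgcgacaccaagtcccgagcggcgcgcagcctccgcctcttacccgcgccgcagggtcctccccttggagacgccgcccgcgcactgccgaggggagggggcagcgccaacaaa
Col4a2: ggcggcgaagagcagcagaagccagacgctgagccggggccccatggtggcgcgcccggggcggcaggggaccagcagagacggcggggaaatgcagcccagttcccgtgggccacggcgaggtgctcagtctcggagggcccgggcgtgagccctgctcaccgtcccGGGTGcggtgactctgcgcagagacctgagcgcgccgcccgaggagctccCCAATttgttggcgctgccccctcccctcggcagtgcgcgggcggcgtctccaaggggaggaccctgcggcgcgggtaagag
Each window held 1 match to CCAAT and 1 to CACCC on either strand, with 1 match to GGGCGG for Col4a1 and 3 for Col4a2, and neither held CACGTG or TATAAA. The GC content was 74% for Col4a1 and 73.7% for Col4a2, against 61% for Col1a2.

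Col4a5, a chain of the collagen IV trimers best known from kidney and smooth muscle basement membranes, was at 17.9, 22.4 and 21.4 scaled RPKM in OSKM-CMs, against 11.3 and 12.8 in Control-CMs. It rose 1.70-fold with groups apart (log2 fold change 0.72 with SE 0.14, limma adjusted p = 0.00863). Without Control-CMs replicate 3 the adjusted p was 0.0511 (range over its alternatives 0.000801 to 0.0511). Col4a3, its partner in the glomerular trimer, had 23, 14 and 13 reads in OSKM-CMs against 4 and 0 in Control-CMs and was under the RPKM minimum. With limma voom on all listed genes its log2 fold change was 3.47 (adjusted p = 0.0193). Col4a4 and Col4a6 had 27 and 20 reads over the OSKM-CMs libraries and 9 and 9 over the Control-CMs libraries. Col15a1 (ENSMUSG00000028339.11), a collagen of the outer face of muscle and capillary basement membranes, was at 6.08, 4.63 and 6.31 scaled RPKM in OSKM-CMs, against 4.998 and 2.73 in Control-CMs. Its groups overlapped and it did not pass (log2 fold change 0.49, limma adjusted p = 0.156). Without Control-CMs replicate 3 its adjusted p was 0.0409 (range 0.0300 to 0.672). Col18a1, the source of endostatin, was at 2.10, 1.01 and 1.26 in OSKM-CMs, against 0.369 and 0.884 in Control-CMs, with groups apart (limma adjusted p = 0.128).

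Of 8 laminin chains tested, 2 rose (background 15.9% of all genes tested), 1 fell (14.3%) and 5 did not pass. The median log2 fold change of the laminins was 0.14. The 3 tested alpha chains, which carry the receptor-binding end, did not pass. Lama2 (ENSMUSG00000019899.8), the main alpha chain around muscle fibers, was at 16.9, 18.4 and 16.4 scaled RPKM in OSKM-CMs, against 15.4 and 15.05 in Control-CMs (log2 fold change 0.17 with SE 0.12, limma adjusted p = 0.331). Lama4 (ENSMUSG00000019846.5), an endothelial and muscle chain, was at 5.89, 5.54 and 6.18 in OSKM-CMs, against 5.32 and 6.04 in Control-CMs (log2 fold change 0.04, limma adjusted p = 0.851). Lama5 (ENSMUSG00000015647.8), a chain of most mature basement membranes, was at 21.7, 21.2 and 17.9 in OSKM-CMs, against 20.04 and 21.6 in Control-CMs (log2 fold change -0.04, limma adjusted p = 0.835). The groups overlapped for Lama4 and Lama5, while for Lama2 the OSKM-CMs libraries were all above the Control-CMs libraries by a margin that did not pass.

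Among the beta and gamma chains, Lamc1 (ENSMUSG00000026478.8), the gamma chain of most laminins, was at 18.1, 17.2 and 19.4 scaled RPKM in OSKM-CMs, against 9.36 and 10.0 in Control-CMs. The groups were far apart relative to the spread within each. Lamc1 rose 1.89-fold (log2 fold change 0.85 with SE 0.13, limma adjusted p = 0.00262). Lamb2 (ENSMUSG00000052911.4), the beta2 chain found at neuromuscular junctions and in muscle and kidney basement membranes, was at 56.8, 68.4 and 57.9 in OSKM-CMs, against 78.0 and 84.2 in Control-CMs. Every OSKM-CMs library was below both Control-CMs libraries. Lamb2 fell to 0.753 of its Control-CMs level with TMM scaling (log2 fold change -0.41 with SE 0.13, limma adjusted p = 0.0449), but stood at 0.0059 with library totals alone, against a median of 0.36 over all genes. Its adjusted p was 0.132 and 0.130 without OSKM-CMs replicates 1 and 3, and 0.0987 and 0.185 without Control-CMs replicates 3 and 5 (range over its alternatives 0.0163 to 0.976). Lamb1 (ENSMUSG00000002900.8), the widespread beta1 chain, was at 11.6, 6.52 and 9.41 in OSKM-CMs, against 8.00 and 7.16 in Control-CMs, with overlap (log2 fold change 0.22, limma adjusted p = 0.493).

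The summed laminin level was 139, 147 and 139 scaled RPKM in OSKM-CMs and 140 and 149 in Control-CMs, and these overlapped. The summed beta chains Lamb1 and Lamb2 were 3.77, 4.36 and 3.46 times Lamc1 in OSKM-CMs, against 9.19 and 9.13 times in Control-CMs, a ratio within each library that does not depend on scaling. The groups did not overlap. Lamb2, called lower, was the larger of the summed beta chains, and Lamc1 was called higher. The separation follows from those calls and is not separate support for the fall of Lamb2. Lamb3, a beta chain of epithelial laminin, was at 2.62, 3.55 and 3.23 in OSKM-CMs, against 2.82 and 2.84 in Control-CMs (limma adjusted p = 0.683). Lama3, an epithelial alpha chain under the RPKM minimum, had 29 reads over the OSKM-CMs libraries and 26 over the Control-CMs libraries.

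**Figure D3:**
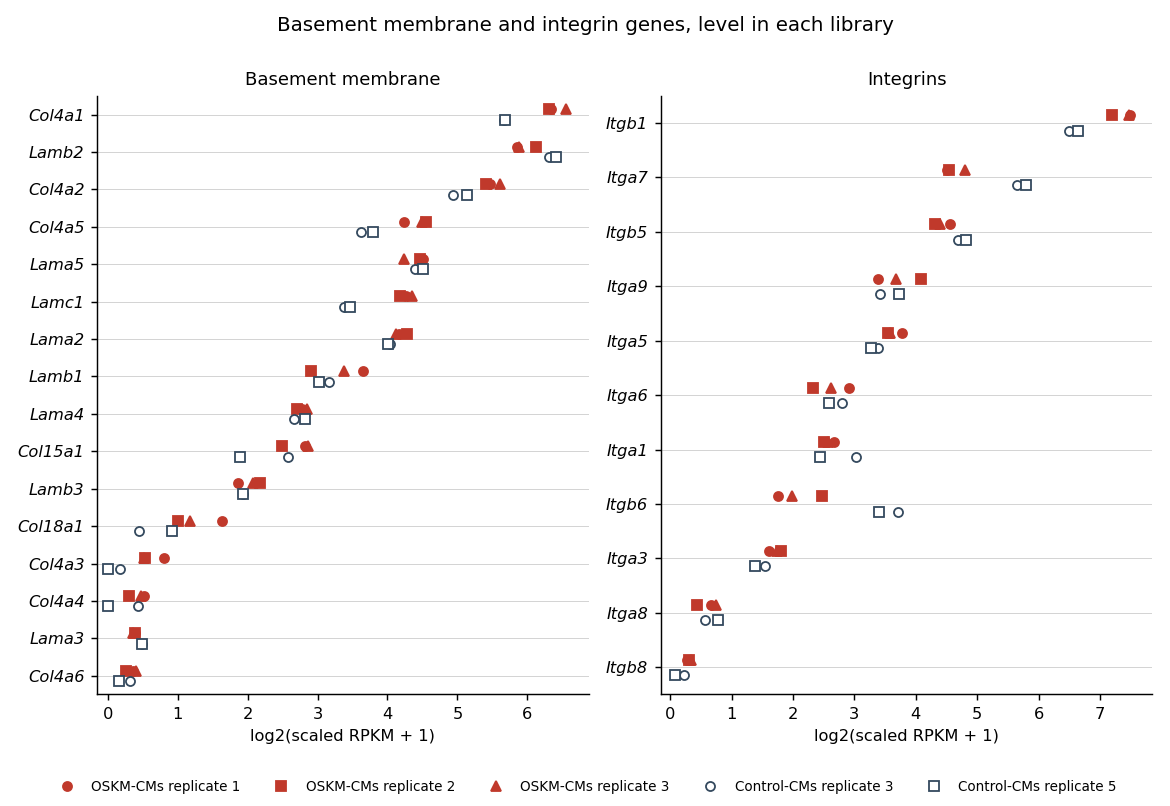
Level of listed basement membrane genes (left) and integrin genes (right) in each library, as log2(scaled RPKM + 1) on the x axis, with filled red marks for OSKM-CMs and open marks for Control-CMs. Itga7 (21.7 to 27.0 scaled RPKM in OSKM-CMs, 49.0 and 54.5 in Control-CMs) and Itgb6 have their red marks left of the open marks, and Itgb1 and Lamc1 have them right of the open marks. Lamb2 is drawn with TMM scaling, and its difference was 0.0059 on the log2 scale with library totals alone.

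Of the 9 integrins tested, Itgb1 rose (background 15.9% of all genes tested), Itga7 and Itgb6 fell (14.3%) and 6 did not pass. The median log2 fold change was -0.07. Itgb1 (ENSMUSG00000025809.8), the beta subunit shared by the collagen, laminin and fibronectin receptors, was the most abundant of all 49 members. It was at 177, 146 and 176 scaled RPKM in OSKM-CMs, against 89.1 and 98.2 in Control-CMs, with groups apart. It rose 1.78-fold (log2 fold change 0.82 with SE 0.13, limma adjusted p = 0.0032). Itga7 (ENSMUSG00000025348.7), the laminin-binding alpha subunit of striated muscle and a partner of Itgb1, was at 21.7, 22.3 and 27.0 in OSKM-CMs, against 49.01 and 54.5 in Control-CMs. Every OSKM-CMs library was below both Control-CMs libraries, and Itga7 fell to 0.457 of its Control-CMs level (log2 fold change -1.10 with SE 0.14, limma adjusted p = 0.00131). Itgb6 (ENSMUSG00000026971.9), which pairs with the alpha v subunit and binds latent TGF-beta, was at 2.38, 4.52 and 2.94 in OSKM-CMs, against 12.1 and 9.52 in Control-CMs. It fell to 0.304 of its Control-CMs level with groups apart (log2 fold change -1.49 with SE 0.23, limma adjusted p = 0.00307).

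The other integrin subunits did not pass. Itga5 (ENSMUSG00000000555.6), the fibronectin receptor's alpha subunit, was at 12.6, 10.6 and 10.9 scaled RPKM in OSKM-CMs, against 9.39 and 8.66 in Control-CMs (log2 fold change 0.30 with SE 0.14, limma adjusted p = 0.141). Itgb5 (ENSMUSG00000022817.8), a vitronectin receptor's beta subunit, was at 22.5, 18.9 and 20.0 in OSKM-CMs, against 24.7 and 27.1 in Control-CMs (log2 fold change -0.33 with SE 0.13, limma adjusted p = 0.0953). The groups were apart for both, in opposite directions, and with library totals alone Itgb5 stood at 0.076. Itga6 (ENSMUSG00000027111.8), a laminin receptor's alpha subunit of endothelial and epithelial cells, was at 6.50, 4.03 and 5.11 in OSKM-CMs, against 5.93 and 5.02 in Control-CMs, with overlap (limma adjusted p = 0.809). Itga1 (collagen-binding), Itga3 (laminin-binding) and Itga9 (binding tenascin and osteopontin) had log2 fold changes of -0.14, 0.26 and 0.15 and limma adjusted p of 0.622, 0.312 and 0.643. Itga8 and Itgb8 were under the RPKM minimum, with 36 and 24 reads over the OSKM-CMs libraries and 27 and 8 over the Control-CMs libraries.

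Itgb1 and Itga7 moved in opposite directions, and their balance was read within each library. The 7 numbered alpha subunits among the members, which pair with Itgb1, summed to 58.3, 60.5 and 62.8 scaled RPKM in OSKM-CMs, against 83.5 and 87.2 in Control-CMs. Itgav is not part of this sum and was at 4.79, 4.97 and 5.85 in OSKM-CMs, against 3.30 and 3.45 in Control-CMs. Of the subunits in the sum, Itga7 alone was called lower and none was called higher, so the lower sum does not describe the partners as a group. For Itga3 and Itga5, which did not pass, every OSKM-CMs library was above both Control-CMs libraries. The ratio of Itgb1 to the alpha sum was 3.05, 2.41 and 2.80 in OSKM-CMs and 1.07 and 1.13 in Control-CMs, with no overlap. Its separation follows from the calls of Itgb1 and Itga7 and is not separate support for them. Itga7 made up 37.2%, 36.9% and 43.0% of the alpha sum in OSKM-CMs and 58.7% and 62.5% in Control-CMs. Among the laminin-binding subunits Itga3, Itga6 and Itga7 alone, the share of Itga7 was 71.7%, 77.4% and 78.3% in OSKM-CMs and 86.2% and 89.2% in Control-CMs. RNA ratios of this kind say nothing of the dimers on the cell surface, which were not measured.

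The fibrillar and basement membrane sums were set against each other within each library. The fibrillar sum was 76.3, 39.9 and 84.1 scaled RPKM in OSKM-CMs, against 16.8 and 13.4 in Control-CMs, a 4.41-fold difference of the means. Col3a1 made up most of it, with a mean of 38.6 of 66.8 in OSKM-CMs and 8.51 of 15.1 in Control-CMs. The basement membrane sum was 289, 296 and 309 in OSKM-CMs, against 237 and 249 in Control-CMs, a 1.23-fold difference, and within it collagen IV differed 1.59-fold. The largest basement membrane members, Col4a1 and Lamb2, were called in opposite directions. The ratio of fibrillar to basement membrane sums was 0.264, 0.135 and 0.272 in OSKM-CMs and 0.0710 and 0.0539 in Control-CMs. All OSKM-CMs libraries were above both Control-CMs libraries, and the basement membrane remained the larger sum in all 5 libraries. With 3 against 2 libraries an exact permutation test cannot reach a p under 0.10, so none is given for these ratios. The ratio of collagen IV to laminin sums was 1.03, 0.972 and 1.17 in OSKM-CMs and 0.651 and 0.654 in Control-CMs.

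Marker lists of other cell types were read in the same libraries. The fibroblast markers that are not collagens were listed for 11 of 13 genes. Of the 10 tested, 0 rose and 1 fell (Fbln1), against 15.9% and 14.3% of all genes tested, and 9 did not pass. Their median log2 fold change was 0.41, against 0.02 for all genes tested. Among those that did not pass, Mfap5, Mgp and Dcn had log2 fold changes of 1.20, 0.82 and 0.72. Ogn and Islr were at -0.35 and -0.13. The summed scaled RPKM of the 11 listed markers was 129.4 to 242 in OSKM-CMs and 129.8 to 172 in Control-CMs. Mfap5 was at 0 in Control-CMs replicate 5. Mgp, Dcn and Ogn made up most of the sum. Their means were 71.8, 52.8 and 42.5 in OSKM-CMs and 38.8, 31.4 and 55.1 in Control-CMs. The ratio of the fibrillar sum to that marker sum was 0.316, 0.309 and 0.393 in OSKM-CMs and 0.0977 and 0.103 in Control-CMs, with no overlap. All 5 markers of activated fibroblasts were listed, and 3 of the 4 tested rose (Postn, Comp and Lox), against 15.9% of all genes tested. Comp and Lox had a Control-CMs mean under 1 and passed the RPKM minimum through the OSKM-CMs libraries. The sum of the 5 markers was 25.2 to 71.0 in OSKM-CMs and 2.57 to 4.35 in Control-CMs. Comp and Cthrc1 were at 0 in both Control-CMs libraries. Postn, a matrix protein of activated fibroblasts, was at 47.4, 20.6 and 60.5 in OSKM-CMs, against 1.48 and 1.12 in Control-CMs, and was lowest in replicate 2, as most collagens were. The part of such cells in the collagen differences was not tested.

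Endothelial markers were listed for 12 of 12 genes. Of these, 0 rose and 3 fell (Kdr, Egfl7 and Fabp4), against 15.9% and 14.3% of all genes tested. The marker sums were 111 to 234 scaled RPKM in OSKM-CMs and 341 to 364 in Control-CMs. The ratio of the collagen IV sum to the endothelial sum was 0.609, 1.29 and 0.902 in OSKM-CMs and 0.251 and 0.285 in Control-CMs. Mural cell markers were listed for 10 of 10 genes and summed to 739 to 826 in OSKM-CMs and 655 to 688 in Control-CMs, and Des, which cardiomyocytes also express, made up most of the sum (mean 475 in OSKM-CMs and 523 in Control-CMs). Of the 10, Cspg4, Acta2 and Pdgfrb rose (background 15.9% of all genes tested), 0 fell (14.3%) and 7 did not pass. Their median log2 fold change was -0.17. Rgs5, Kcnj8, Tagln, Notch3, Myh11 and Des had log2 fold changes of -0.63 to -0.14, with groups apart and OSKM-CMs lower for Myh11 and Des. Leukocyte markers were listed for 6 of 10 genes and none passed, with sums of 8.62 to 42.2 in OSKM-CMs and 14.2 to 54.2 in Control-CMs. Of the small lists, S100b rose among 2 listed Schwann cell markers, 3 epicardial markers did not pass or were not tested, Hbb-b1 fell as the single erythroid marker listed, and 0 of 3 adipocyte markers were listed. The part of these cell types in the results was not tested.

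**Figure D4:**
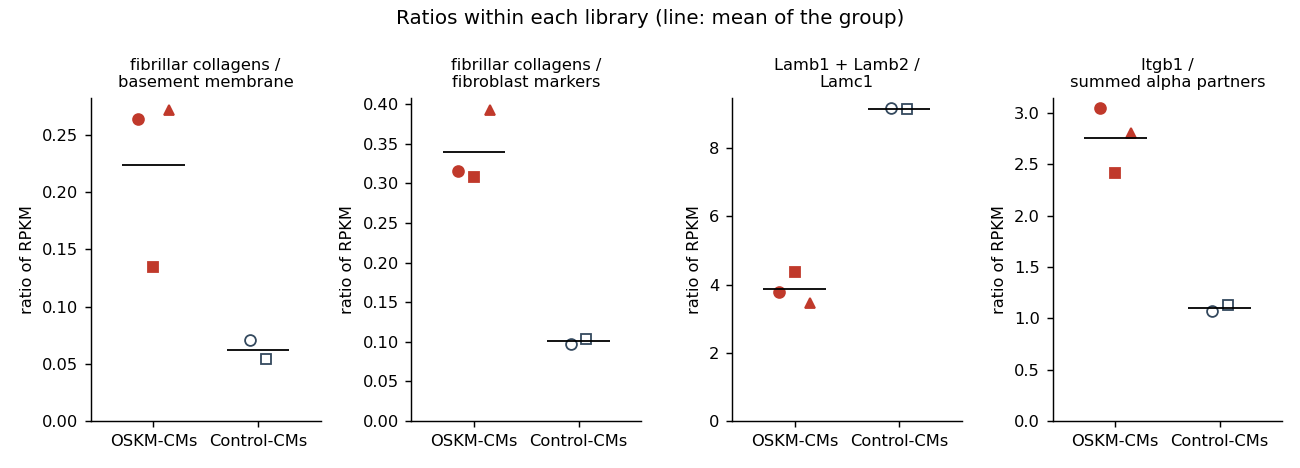
Ratios of summed scaled RPKM within each library (y axes start at 0), with filled marks for OSKM-CMs, open marks for Control-CMs and a line at each group's mean. The ratio of fibrillar to basement membrane sums was higher in OSKM-CMs (0.135 to 0.272 in OSKM-CMs, 0.0539 and 0.0710 in Control-CMs). The ratios of fibrillar collagens to fibroblast markers and of Itgb1 to its numbered alpha partners were higher too. That of Lamb1 plus Lamb2 to Lamc1 was lower.

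Genes that process or bind these proteins were read from lists chosen by role. Of 28 collagen-processing genes, 24 were listed and 21 tested, 11 rose, 0 fell and 10 did not pass, with a median log2 fold change of 0.63. Of all genes tested, 15.9% rose and 14.3% fell. Loxl4, Leprel1, Lox and Adamts2 had a Control-CMs mean under 1 and passed the RPKM minimum through the OSKM-CMs libraries. Adamts3 was under that minimum, with 42 reads over the OSKM-CMs libraries and 66 over the Control-CMs libraries. With limma voom on all listed genes Adamts3 was lower (log2 fold change -1.20, adjusted p = 0.0138). The counts thus describe only the genes that passed. Loxl4, a lysyl oxidase of the family that cross-links collagen, was at 5.96, 6.11 and 6.76 scaled RPKM in OSKM-CMs, against 0.613 and 0.232 in Control-CMs (log2 fold change 2.37 with SE 0.19, limma adjusted p = 0.000222). Unlike most collagens, it was not lowest in replicate 2. Leprel1, a collagen prolyl 3-hydroxylase, was at 3.95, 4.33 and 3.79 in OSKM-CMs, against 0.521 and 0 in Control-CMs (log2 fold change 2.02 with SE 0.22, limma adjusted p = 0.000791). Lox, which is also in the activated fibroblast list, rose (log2 fold change 1.22, limma adjusted p = 0.0152), as did the procollagen C-proteinase enhancers Pcolce2 and Pcolce (log2 fold changes 1.20 and 1.02, limma adjusted p 0.00169 and 0.0176). Of 18 basement membrane partners and laminin receptors other than integrins, 17 were listed and 15 tested, 5 rose, 1 fell and 9 did not pass. Sparc, a collagen-binding matrix protein, was at 76.7, 44.4 and 77.3 in OSKM-CMs, against 30.1 and 24.6 in Control-CMs (log2 fold change 1.21 with SE 0.26, limma adjusted p = 0.0138).

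Of the 24 genes of the integrin adhesion complex, 22 were listed and 20 tested. Of these, 6 rose (background 15.9% of all genes tested), 1 fell (14.3%) and 13 did not pass. Their median log2 fold change was 0.04. Actn4, an actin cross-linker, and Rsu1, a partner of the LIMS1 adaptor, rose with log2 fold changes of 1.31 and 1.17 (limma adjusted p 0.000609 and 0.00276). The gene that fell was Itgb1bp2, named here after its values were seen, which encodes melusin, a muscle protein that binds the tail of the beta1 integrin. It was at 52.6, 62.5 and 53.8 scaled RPKM in OSKM-CMs, against 106 and 113 in Control-CMs, with groups apart. It fell by 0.96 on the log2 scale (SE 0.12, limma adjusted p = 0.00145). The collagen receptor Ddr1 rose (log2 fold change 0.71, limma adjusted p = 0.00893), and Ddr2 was not tested. Of 7 integrin subunits with letter names, 3 were listed, and Itgav, the alpha v partner of Itgb5 and Itgb6, rose (log2 fold change 0.50, limma adjusted p = 0.0466).

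Several members lie next to each other in the genome (gene order of protein-coding genes from RefSeq on GRCm38, while the reads were aligned to mm9). Col3a1 and Col5a2 are neighbours on chromosome 1 and both rose, as did Col4a1 and Col4a2 on chromosome 8. Col6a2 and Col6a1 are neighbours on chromosome 10, where Col6a1 passed and Col6a2 did not. Annotated exons of some members overlap another gene, by 22 bases between Col4a1 and Col4a2 and by 9 between Itga7 and Mettl7b. For Lama2 and Itga1 the overlap with an uncharacterised gene was 631 and 685 bases. Col4a3, with 50 reads over the OSKM-CMs libraries and 4 over the Control-CMs libraries, overlaps C430014B12Rik on the opposite strand by 563 bases. Itga8 overlaps an antisense gene by 372 bases. The strand setting of the counting is not given in the sources used here, so reads in those stretches cannot be assigned with certainty.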

How the data were processed

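Total RNA of isolated cardiomyocytes was sequenced, per the labels. The submitters' processing notes list the build mm9 and the tools STAR 2.5.3, HTSeq, Trimmomatic, FastQC and CASAVA 1.8.2. Annotation, strand setting and treatment of shared reads are not given in the sources used here. The authors' library values were taken as RPKM from the values, since no header names the unit, and FPKM cannot be told apart from it. The authors also deposited log2 fold changes, average log2 CPM, a likelihood-ratio score, p-values and false discovery rates, which are the authors' own. Each of the 12446 listed genes reached 1 CPM in 2 or more libraries; less abundant genes were not analysed here.

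Members and lists were chosen with earlier results of these data known. RPKM values gave whole reads for 100% of genes within 0.0001 reads (for 209 genes a common factor was settled from the authors' average log2 CPM), and these summed to the library totals within 2 reads. The recovered reads gave the totals, the TMM factors (30% of log ratios and 5% of abundances trimmed) and a limma voom alternative. The main test was limma 3.58.1 in R 4.3.3 on log2(TMM-scaled RPKM + 1), using robust, trended empirical Bayes, 2-sided, with Benjamini-Hochberg adjustment at 0.05 over the 10915 genes whose mean RPKM reached 1. Scripts were tested on simulated data. Named with values were members past the threshold with a fold of at least 2, a fixed set of landmark genes, and pathway genes past both thresholds (at most 6 a list). Other members are given by values or reads, and 1 member, which stays in the counts and sums, is not reported here. In total 13 alternatives were run. Promoter windows and gene order came from RefSeq tables, and gene overlaps from GENCODE on GRCm38.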

Additional observations from a re-analysis of the deposited data

How the results depend on the processing

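No paired analysis was possible because OSKM-CMs and Control-CMs have just 1 replicate number in common. Of 17 called members, 7 kept their call in all 13 alternatives, among them Col3a1, Col4a1, Lamc1, Itgb6, Itga7 and Itgb1, and 10 lost it in at least 1; the cause was not tested. With library totals alone, which moved the all-gene median log2 fold change to 0.36, 3985 genes rose and 650 fell, 6 other collagens, 8 basement membrane members and 2 integrins rose, 0 basement membrane members fell, and the medians were 0.78 for the basement membrane and 0.28 for integrins. In that setting Lama5 (0.36), Lamb2 (0.0059), Itgb5 (0.076), Itga1 (0.21) and Itga6 (0.28) turned positive. With 5 added before logs the medians were 0.87 (fibrillar), 0.35 (other collagens) and 0.20 (basement membrane); with 0.1 added the other collagens were at 1.50. With no minimum RPKM, 5 other collagens rose and the basement membrane median was 0.22. With limma voom, 2 fibrillar collagens rose and the median of other collagens was 1.57; with no trend and no robust step, 0 basement membrane members fell. Leaving out single libraries gave 1158 to 1563 genes higher (1158 without OSKM-CMs replicate 3) and 953 to 1504 lower (953 without Control-CMs replicate 5). Members that rose numbered 9 to 16, with 3 to 5 fibrillar and 1 to 5 other collagens, and 0 to 1 basement membrane members fell. The median was 0.16 to 0.49 for the basement membrane and -0.19 to 0.028 for integrins. Of genes whose sign turned, none of them called, Col5a3 spanned -0.036 to 0.28, Lama4 -0.037 to 0.12, Lama5 -0.096 to 0.039, Itga9 -0.042 to 0.32, Itga1 -0.44 to 0.15 and Itga6 -0.22 to 0.064. Depth limits the 15 members under the RPKM minimum, with 14 to 120 reads in OSKM-CMs and 0 to 27 in Control-CMs, and with 1 control left out the lone one was assumed to vary like the other group.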
